A study of Homo sapiens with 6 samples.

Results

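The genes described here are the cytokines, chemokines, interleukins and their receptors that the array measured in MDA-MB-468 cells after knockdown of the long non-coding RNA NRAD1 (LINC00284). Members were all annotated gene symbols that begin with CXCL, CCL, CXCR, CCR or IL followed by a number, with antisense names left out. This gave 105 members, each read by 1 transcript cluster (the gene-level probe set of the platform), out of 14884 named genes and 53617 transcript clusters. CCR3 was named only by the supplementary gene table of the study, which lists genes that passed its cutoffs on these arrays, so its values are given as a description, and the counts below are those of the other 104 members. MDA-MB-468 is an established breast cancer line of the basal-like, triple-negative type. In the knockdown group, 3 samples were treated with 15 nM of GapmeR#4, an antisense oligonucleotide that binds NRAD1 and directs RNase H to cleave it, and in the control group 3 samples were treated with 15 nM of a control GapmeR. All cells were unsorted, carried no other engineered change that the labels name, received the same transfection reagent and were collected after 48 h. The labels call the samples biological replicates without saying how the cultures were separated, so each p-value rests on the spread among these samples, whatever its source. The groups stand for 1 cell line and 1 GapmeR sequence.

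Chemokines are small secreted proteins that steer migrating cells through receptors of the G-protein-coupled class. CXC and CC chemokines differ in the spacing of their first conserved cysteines, and CXCR and CCR receptors are named after the class that they bind. Interleukins act mainly through single-pass receptors: the IL-1 family and the IL-17 family signal to NF-kappa-B and MAP kinases through adaptor proteins, whereas most other interleukins signal through JAK kinases and STAT factors, which SOCS proteins dampen. Epithelial tumor cells can produce several of these ligands themselves and carry some of the receptors, although many members are best known from leukocytes.

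Signals were log2 values that the authors had processed, and changes are GapmeR#4 minus control GapmeR. Array medians lay between 3.96 and 4.00 and lower quartiles between 2.50 and 2.55. NRAD1 gave log2 signals of 2.96, 2.99 and 2.90 on the GapmeR#4 arrays, against 3.43, 3.46 and 4.01 on the control arrays. The groups did not overlap, yet the log2 change of -0.69 (SE 0.17) had an adjusted p of 0.0908 from limma and an exact permutation p of 0.1, the smallest that 3 arrays against 3 allow (2-sided). The epithelial marker EPCAM averaged 11.47 in both groups. The 5 measured epithelial markers of 6 all had negative changes, of -0.01 to -0.50, and their summed log2 signals of 46.2 to 47.1 after GapmeR#4 and 47.2 to 48.1 in control cells did not overlap. None was called by limma, with KRT19 (change -0.50, adjusted p = 0.136) and EGFR (change -0.36, adjusted p = 0.142) lower at an unadjusted p under 0.05. These are 40% of the 5, where 12.6% of named genes were lower. The luminal receptors ESR1 and PGR averaged 3.85 and 2.51 after GapmeR#4 and 4.11 and 2.61 in control cells.

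Of the 104 members named by the annotation, 6 passed an adjusted p of 0.05 in limma. The chemokines CXCL9 and CXCL11 and the receptors IL7R and IL1RL1 rose, by 1.25 to 1.78 on the log2 scale, and the chemokine CXCL17 and the receptor IL1RAPL2 fell. The 4 increases are 3.85% of these members, where 1.49% of all named genes and 1.15% of all transcript clusters rose. The 2 decreases are 1.92%, where 2.56% of all named genes and 1.42% of all transcript clusters fell. With the cutoffs that the study used, 1.7-fold and p under 0.05, the p here taken from limma without adjustment, 5 members (4.81%) were higher and 1 (0.962%) lower, where 0.947% and 1.8% of named genes were. At an adjusted p of 0.05 the members' share of increases was thus above both backgrounds and their share of decreases between them. With the study's cutoffs, 1.28% of all transcript clusters were higher and 1.2% lower. There the members' share of increases was above both backgrounds and their share of decreases below both. None of these shares was tested. In bulk RNA, fewer cells that make a transcript and less of it in each cell cannot be told apart.

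**Figure D1:**
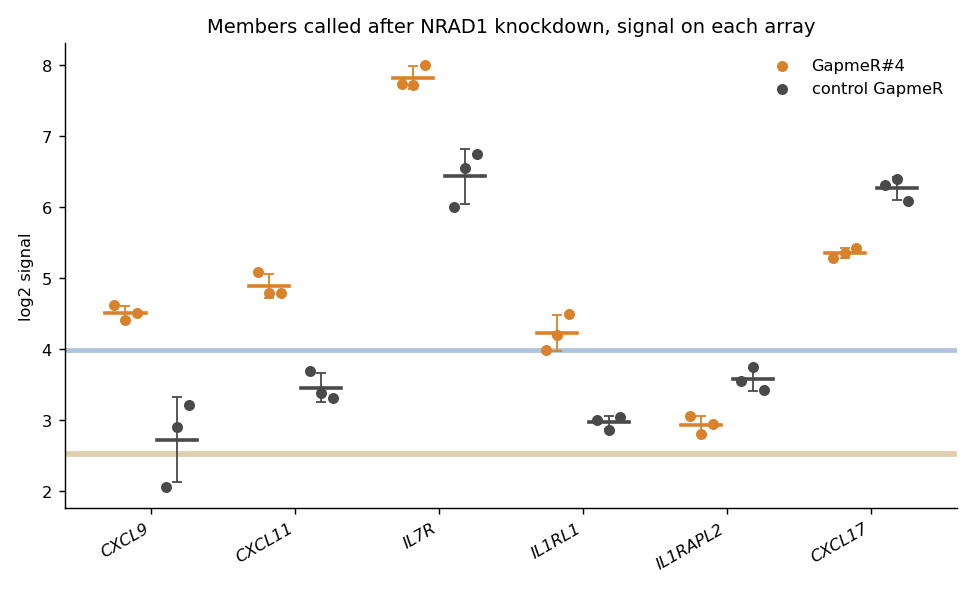
log2 signal of the 6 called members on each array, with GapmeR#4 left of control GapmeR for every gene. Points are arrays, thick lines are means and bars are SDs (n = 3 each), and the blue and tan bands span the medians and the lower quartiles of the 6 arrays. The groups do not overlap for any of the 6 genes.

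Over smaller differences, an unadjusted p under 0.05 was reached by 17 members that were higher (16.3%) and 6 that were lower (5.77%), where 10.5% of named genes were higher and 12.6% lower. The groups did not overlap for 21 members that were higher (20.2%) and 9 that were lower (8.65%), where the shares among named genes were 15.5% and 16.8%. A positive change was seen in 62 of the 104 members (59.6%), against 50.4% of named genes and 54.1% of all transcript clusters. The median log2 change of the 104 members was 0.048, against 0.003 over named genes and 0.021 over all transcript clusters. Without control replicate 3 the median over the 105 members, CCR3 included, was 0.022, against 0.021 over all transcript clusters. Almost no gap to all transcript clusters thus remained there. The median over named genes is not given for that run, and no lean in either direction was tested.

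**Figure D2:**
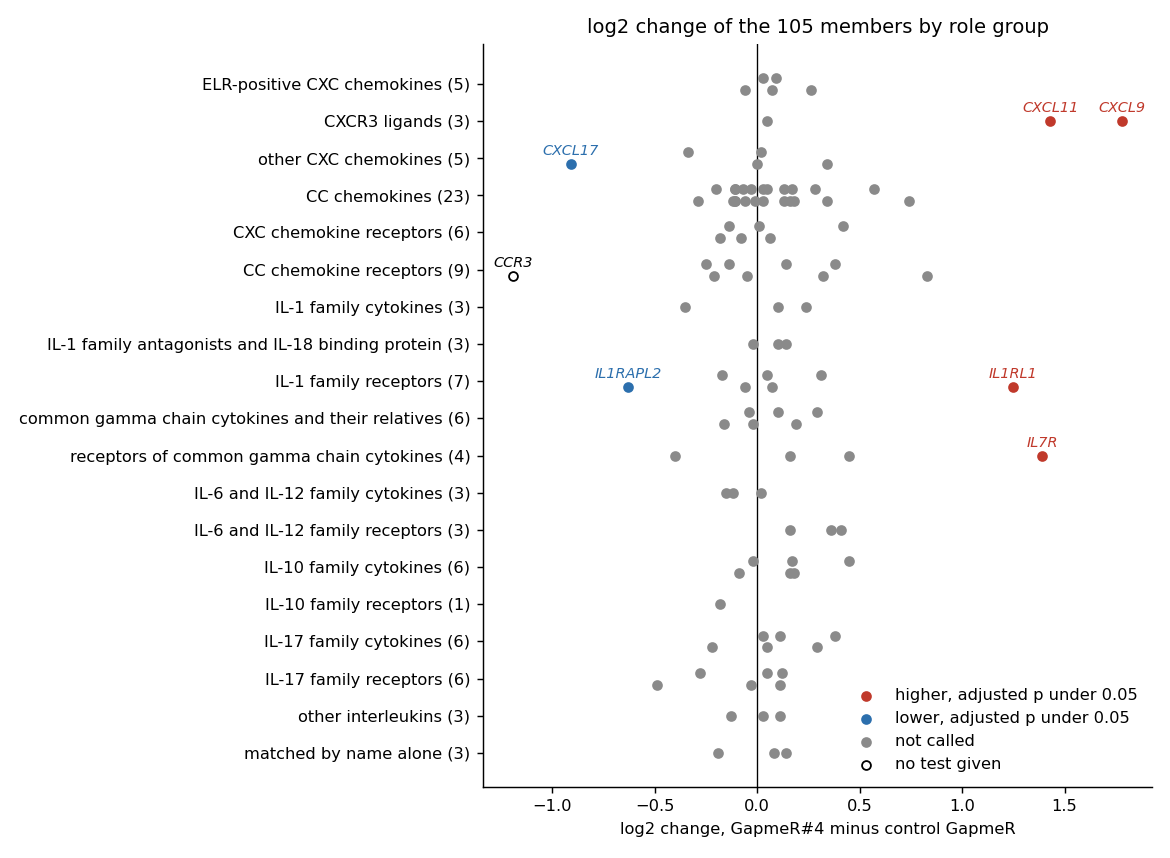
log2 change (GapmeR#4 minus control GapmeR) of each member, in rows by role with the number of members in brackets. Each point is 1 gene. Red points passed an adjusted p of 0.05 upward, blue points downward and grey points did not pass, and the open point is CCR3, for which no test is given. All grey points but CCR2, CCL20 and CCL11 lie within 0.50 of 0.

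Many members gave weak signals in these epithelial cells. The mean signal of 59 members (56.7%) lay below the median of every array, against 30.3% of named genes, and that of 22 lay below every lower quartile. Both ends of the range held calls. CXCL9, IL1RL1 and IL1RAPL2 were called among the 59 dim members, with 3.39% higher and 1.69% lower, where 0.222% of dim named genes rose and 0.333% fell. CXCL11, IL7R and CXCL17 were called among the other 45 members, where 2.04% of named genes of such signal rose and 3.53% fell.

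**Figure D3:**
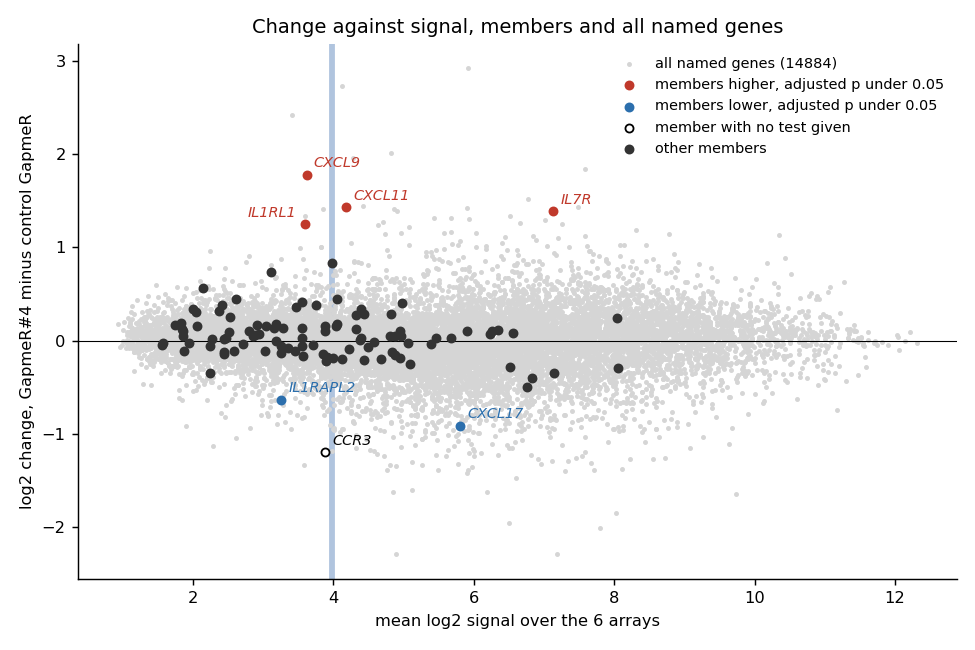
log2 change against the mean log2 signal over the 6 arrays, for the members (large points) and all 14884 named genes (small grey points). Red and blue members passed an adjusted p of 0.05 upward and downward, the open point is CCR3, for which no test is given, and the blue band spans the array medians. Of the called members only IL7R and CXCL17 lie well to the right of that band.

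CXCL9, CXCL10 and CXCL11 are the ligands of CXCR3, the receptor that draws activated T cells and natural killer cells, and all are known as genes that interferon-gamma induces. CXCL9 and CXCL11 were higher after GapmeR#4 and CXCL10 was not called. CXCL11 gave log2 signals of 5.09, 4.80 and 4.79 on the GapmeR#4 arrays, against 3.69, 3.38 and 3.31 on the control arrays. Every GapmeR#4 array stood above every control array, by 1.10 or more, and the log2 change was 1.43 (SE 0.14, adjusted p = 0.00923). For CXCL9 the log2 signals were 4.62, 4.42 and 4.51 on the GapmeR#4 arrays, against 2.06, 2.91 and 3.22 on the control arrays. Control cells were spread widely for this gene (SD 0.60, against 0.10 after GapmeR#4), control replicate 1 lay below the lower quartile of its array, and the log2 change was 1.78 (SE 0.28, adjusted p = 0.027), the largest of any member. CXCL10 had 1.87, 1.69 and 2.09 on the GapmeR#4 arrays, against 1.72, 2.00 and 1.79 on the control arrays. The groups overlapped, all 6 values lay below the lower quartiles, and the log2 change was 0.05 (SE 0.14, adjusted p = 0.91). CXCR3 itself averaged 3.79 ± 0.08 after GapmeR#4 and 3.93 ± 0.22 in control cells (SD, n = 3 each), a log2 change of -0.14 (adjusted p = 0.679). With 1 array left out in turn, CXCL11 kept an adjusted p of 0.0349 to 0.0425 in 5 runs and had 0.0559 without control replicate 2. CXCL9 passed only without control replicate 1 (0.0387) or control replicate 3 (0.0384), and had 0.0886, 0.0781 and 0.0979 without GapmeR#4 replicates 1, 2 and 3 and 0.092 without control replicate 2.

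The 3 genes lie close together on chromosome 4, in the order CXCL9, ART3, CXCL10 and CXCL11 among RefSeq protein-coding genes. Their promoter windows are shown because neighbours of 1 class gave unequal changes. Each runs from 250 bases before to 50 bases after the RefSeq start (GRCh38.p14), 5′ to 3′ on the gene's strand. Capitals mark matches to 3 motifs, searched on both strands: TGANTCA, the AP-1 site, GAAANNGAA, the core of the interferon-stimulated response element, and GGAANTTCC, a core of NF-kappa-B sites. The first and the last of these read the same on both strands. The windows are chr4:76007460-76007759 for CXCL9, chr4:76023448-76023747 for CXCL10 and chr4:76036021-76036320 for CXCL11, all on the minus strand.
CXCL9: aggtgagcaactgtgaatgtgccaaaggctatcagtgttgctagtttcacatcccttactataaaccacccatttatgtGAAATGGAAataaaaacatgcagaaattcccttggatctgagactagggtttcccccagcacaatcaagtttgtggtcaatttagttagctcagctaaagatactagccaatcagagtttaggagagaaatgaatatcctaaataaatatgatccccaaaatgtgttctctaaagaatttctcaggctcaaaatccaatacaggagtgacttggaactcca
CXCL10: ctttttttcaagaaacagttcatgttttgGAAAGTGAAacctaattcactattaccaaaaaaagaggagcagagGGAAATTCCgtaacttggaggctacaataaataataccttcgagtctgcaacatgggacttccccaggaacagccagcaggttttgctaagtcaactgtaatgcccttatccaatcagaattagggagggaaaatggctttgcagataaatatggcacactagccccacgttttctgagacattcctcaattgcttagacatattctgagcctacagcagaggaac
CXCL11: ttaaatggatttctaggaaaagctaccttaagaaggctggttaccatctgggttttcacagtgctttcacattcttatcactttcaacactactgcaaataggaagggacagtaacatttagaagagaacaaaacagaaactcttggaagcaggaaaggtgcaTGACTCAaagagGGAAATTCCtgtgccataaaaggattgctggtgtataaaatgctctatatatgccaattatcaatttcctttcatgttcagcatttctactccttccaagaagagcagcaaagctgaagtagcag
The interferon element core began 171 bases before the start in CXCL9 and 221 bases before it in CXCL10, and CXCL11 held none in this window. The NF-kappa-B core began 176 bases before the start in CXCL10 and 75 bases before it in CXCL11, in both cases with the same letters, and CXCL11 also held an AP-1 site 87 bases before its start. No marked matches overlapped each other. None of the 3 motifs was found both in CXCL9 and in CXCL11. A match is a run of letters and not a shown binding site.

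**Figure D4:**
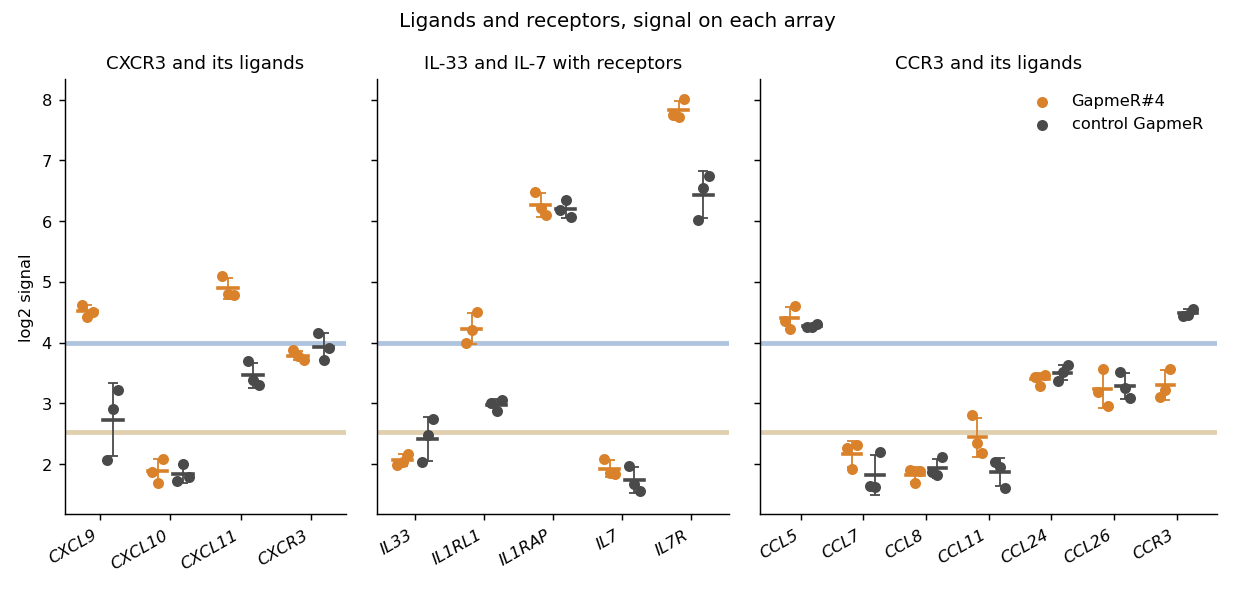
log2 signal on each array for CXCR3 and its ligands (left) and IL-33 and IL-7 with their receptors (middle). The right panel shows CCR3 and the measured ligands listed here as its partners. For every gene, GapmeR#4 stands left of control GapmeR. Points are arrays, thick lines means and bars SDs (n = 3 each), and the blue and tan bands span the medians and the lower quartiles of the 6 arrays. CXCL9, CXCL11, IL1RL1 and IL7R are higher after GapmeR#4, and CCR3, for which no test is given, has lower signals after GapmeR#4, while CXCL10, CXCR3, IL33, IL1RAP and IL7 overlap between groups.

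CXCL17, a chemokine made mainly by mucosal epithelium, was the chemokine that fell. Its log2 signal was 5.29, 5.35 and 5.43 on the GapmeR#4 arrays, against 6.32, 6.40 and 6.09 on the control arrays. The arrays of each group lay close together and well apart from the other group, and the log2 change was -0.91 (SE 0.12, adjusted p = 0.0167). It passed with control replicate 3 left out (0.0348) and in no other such run, with 0.0578, 0.0625 and 0.0623 without GapmeR#4 replicates 1, 2 and 3 and 0.0637 and 0.0794 without control replicates 1 and 2. CXCL16, a membrane-bound ligand of CXCR6, moved the same way by less: 6.94, 7.01 and 6.95 after GapmeR#4, against 7.25, 7.36 and 7.32 in control cells. These groups too stood apart, but the log2 change of -0.34 had an adjusted p of 0.119. The promoter window of CXCL17 (chr19:42442897-42443196, minus strand) is shown for contrast with the chemokines that rose, with its AP-1 site in capitals, 28 bases after the start.
CXCL17: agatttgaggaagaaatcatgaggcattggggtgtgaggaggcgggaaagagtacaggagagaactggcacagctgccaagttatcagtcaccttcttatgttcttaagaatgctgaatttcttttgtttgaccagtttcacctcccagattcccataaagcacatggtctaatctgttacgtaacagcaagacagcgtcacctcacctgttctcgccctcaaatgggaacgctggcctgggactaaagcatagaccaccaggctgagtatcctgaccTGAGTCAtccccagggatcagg
CXCL12, the ligand of CXCR4, had a log2 change of 0.34 without overlap (adjusted p = 0.19), and CXCR4 one of 0.01. CXCL13 and CXCL14 had changes of 0.02 and 0.00.

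The CXC chemokines with the ELR sequence before the first cysteines draw neutrophils through CXCR1 and CXCR2, and are classic NF-kappa-B targets. None of the 5 that were measured was called by limma. At an unadjusted p under 0.05, 1 was higher (20%) and 0 lower, where 10.5% of named genes were higher and 12.6% lower. Their median log2 change was 0.07. CXCL2 gave log2 signals of 5.62, 5.42 and 5.37 after GapmeR#4, against 5.51, 5.40 and 5.42 in control cells. CXCL8, which encodes IL-8, had 2.93, 2.32 and 2.45 after GapmeR#4, against 2.31, 2.56 and 2.56 in control cells. The groups overlapped for both genes. CXCL6 did not overlap, with 2.58, 2.64 and 2.76 after GapmeR#4 and 2.46, 2.40 and 2.32 in control cells, and its log2 change was 0.26 (adjusted p = 0.25). CXCL3 and CXCL5 changed by 0.07 and -0.06.

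The NF-kappa-B core was present in 9 of the 79 member promoters that RefSeq gave (11.4%), against 0.967% of 27305 windows of all genes. They were those of CCL1, IL18RAP, CXCL10, CXCL11 and all the measured ELR chemokines, CXCL2, CXCL3, CXCL5, CXCL6 and CXCL8. Among these 9, CXCL11 was called, and the log2 changes of the others lay between -0.11 and 0.26. The AP-1 site was in 15 member windows (19%), against 7.76% of all windows, and the interferon element core in 15 (19%), against 8.29%.

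None of the 23 CC chemokines was called by limma. At an unadjusted p under 0.05, 2 were higher (8.7%) and 0 lower, where 10.5% of named genes were higher and 12.6% lower. The median log2 change of the CC chemokines was 0.03, close to that of all transcript clusters. Among them CCL20, which draws cells that carry CCR6 and is made by epithelium, had the largest change. Its log2 signal was 3.65, 3.67 and 3.10 on the GapmeR#4 arrays, against 2.62, 2.70 and 2.89 on the control arrays. GapmeR#4 replicate 3 lay nearest to the control arrays, without overlap, and the log2 change was 0.74 (SE 0.18, adjusted p = 0.0837). CCL11, also called eotaxin, had 2.80, 2.35 and 2.18 after GapmeR#4, against 2.04, 1.95 and 1.61 in control cells. All GapmeR#4 arrays stood above all control arrays, at a mean signal below the lower quartiles, and the log2 change was 0.57 (SE 0.19, adjusted p = 0.187). CCL28, a mucosal epithelial chemokine with 7.91 ± 0.19 after GapmeR#4 and 8.20 ± 0.09 in control cells (SD, n = 3 each), had a change of -0.29 without overlap (adjusted p = 0.302). CCL3L1 had 5.70 ± 0.14 after GapmeR#4 and 5.67 ± 0.22 in control cells (SD, n = 3 each). It belongs to a set of near-identical gene copies, so its probes may read several of them. For CCL2 the change was -0.03, and for CCL5 0.13.

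CCR3, the eotaxin receptor of eosinophils, gave log2 signals of 3.10, 3.22 and 3.57 on the GapmeR#4 arrays, against 4.43, 4.45 and 4.56 on the control arrays. All GapmeR#4 arrays lay below all control arrays, and the log2 change was -1.19 (SE 0.14). Since the gene was included because the study listed it on these arrays, no test is given for it. Of the ligands listed here as its partners, CCL5, CCL7, CCL8, CCL24 and CCL26 had log2 changes of 0.13, 0.34, -0.11, -0.11 and -0.06 with overlapping groups. CCL11 is given above, as is CCL28, which was not on that list. CCR2, the receptor of CCL2 and the next protein-coding gene on chromosome 3, had 4.81, 4.02 and 4.34 on the GapmeR#4 arrays, against 3.49, 3.43 and 3.78 on the control arrays. Again without overlap, the change of 0.83 (SE 0.21) was past 1.7-fold, but the adjusted p was 0.0973. Among the brighter 50% of transcript clusters alone, where fewer tests are corrected for, CCR2 passed (adjusted p = 0.0478). CCR1, on the other side of CCR3, had 4.97 ± 0.34 after GapmeR#4 and 5.22 ± 0.11 in control cells (SD, n = 3 each), a change of -0.25 (adjusted p = 0.562). CCR9 and CXCR1 did not overlap between groups, with log2 changes of 0.38 and 0.42 (adjusted p = 0.156 and 0.153), and CXCR2, the neighbour of CXCR1, changed by 0.06. CCR7 had a change of -0.21 and CXCR6 one of -0.18, both with overlapping groups. None of the other 14 chemokine receptors was called by limma. At an unadjusted p under 0.05, 3 were higher (21.4%) and 0 lower, where 10.5% of named genes were higher and 12.6% lower.

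IL1RL1, also known as ST2, is the receptor that binds IL-33, and IL1RAP is the accessory chain that it needs to signal. IL1RL1 rose: its log2 signal was 3.99, 4.20 and 4.50 on the GapmeR#4 arrays, against 3.00, 2.87 and 3.05 on the control arrays. Its control signals lay between the lower quartile and the median of their arrays, its GapmeR#4 signals above the medians of theirs, and the log2 change was 1.25 (SE 0.15, adjusted p = 0.0132). It passed without GapmeR#4 replicate 1 (0.0324), GapmeR#4 replicate 3 (0.043) and control replicate 3 (0.043), and had 0.0508, 0.0545 and 0.0702 without GapmeR#4 replicate 2, control replicate 1 and control replicate 2. IL33 had 1.99, 2.03 and 2.17 after GapmeR#4, against 2.03, 2.48 and 2.74 in control cells, mostly below the lower quartile, with a change of -0.35 (adjusted p = 0.393). IL1RAP averaged 6.27 ± 0.20 after GapmeR#4 and 6.20 ± 0.14 in control cells (SD, n = 3 each), a change of 0.07 (adjusted p = 0.867). The array does not separate the membrane form of IL1RL1 from the soluble form that acts as a decoy.

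IL1RL1 lies in a run of IL-1 family receptor genes on chromosome 2, between IL1RL2 and IL18R1, with IL18RAP after that. The neighbours had log2 changes of 0.05, -0.17 and -0.06, against 1.25 for IL1RL1, and all 3 overlapped between groups. Its promoter window (GRCh38.p14, chr2:102337007-102337306, plus strand) is shown as that of the 1 gene of this run that was called, with an AP-1 site in capitals, 191 bases before the start.
IL1RL1: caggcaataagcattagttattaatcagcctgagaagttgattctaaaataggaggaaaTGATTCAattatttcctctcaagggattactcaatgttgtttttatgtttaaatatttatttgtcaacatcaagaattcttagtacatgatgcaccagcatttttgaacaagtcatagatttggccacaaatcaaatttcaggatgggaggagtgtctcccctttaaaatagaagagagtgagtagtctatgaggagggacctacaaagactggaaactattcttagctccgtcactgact
RefSeq lists this start, and expression from another start of the gene was not analysed here.

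IL1RAPL2, a receptor of this family known mainly from brain and encoded on the X chromosome, fell at the edge of the threshold. Its log2 signal was 3.06, 2.81 and 2.95 on the GapmeR#4 arrays, against 3.55, 3.75 and 3.43 on the control arrays, without overlap and below the array medians. The log2 change was -0.63 (SE 0.12, adjusted p = 0.0499). The call was lost with any 1 array left out (adjusted p = 0.0744 to 0.168) and with median centring (0.0513). With transcript clusters of 1 gene averaged the adjusted p was 0.0501. That setting left the signals of IL1RAPL2 as they were and altered only other rows of the table. The related IL1RAPL1 had a change of 0.31 in the other direction, with signals below the lower quartile (adjusted p = 0.2). The cytokine IL18, which epithelial cells store as a precursor, had 8.18, 8.03 and 8.26 after GapmeR#4, against 7.57, 8.05 and 8.13 in control cells. The groups overlapped (change 0.24, adjusted p = 0.537). IL18BP, the secreted inhibitor of IL-18, IL1RN, the IL-1 receptor antagonist, and IL36RN had changes of 0.10, -0.02 and 0.14.

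IL7R, the alpha chain of the IL-7 receptor, was the called member of the highest mean signal. Its log2 signal was 7.74, 7.72 and 8.01 on the GapmeR#4 arrays, against 6.01, 6.55 and 6.75 on the control arrays. All 6 values lay above the upper quartiles of the arrays, the groups stood apart by 0.97, and the log2 change was 1.39 (SE 0.20, adjusted p = 0.0226). It passed without control replicate 1 (0.0452) or control replicate 3 (0.0387), and had 0.0656, 0.0659 and 0.0869 without GapmeR#4 replicates 1, 2 and 3 and 0.0821 without control replicate 2. IL7 gave signals of 2.09, 1.85 and 1.84 after GapmeR#4, against 1.97, 1.68 and 1.55 in control cells, all below the lower quartiles, with a change of 0.19 (adjusted p = 0.579). The promoter window of IL7R held none of the 3 motifs.

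Other receptors that share the common gamma chain or belong to that group moved by less. IL4R, the receptor chain for IL-4 and IL-13, had 6.29, 6.83 and 6.76 after GapmeR#4, against 7.08, 7.03 and 6.96 in control cells. IL21R, the next gene on chromosome 16, had 4.21, 4.20 and 4.46 after GapmeR#4, against 3.96, 3.91 and 3.65 in control cells. These neighbours thus differed in direction, each without overlap, with log2 changes of -0.40 for IL4R (adjusted p = 0.26) and 0.45 for IL21R (adjusted p = 0.14). The ligand IL15 had 4.58 ± 0.12 after GapmeR#4 and 4.29 ± 0.21 in control cells (SD, n = 3 each), a change of 0.29 without overlap (adjusted p = 0.337). IL2, IL4 and IL21 lay below the lower quartiles in both groups.

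IL17RD, a receptor of the IL-17 family that is also known as SEF, an inhibitor of FGF signalling, had the smallest adjusted p among the remaining members. Its log2 signal was 6.61, 6.57 and 6.37 on the GapmeR#4 arrays, against 7.05, 7.0 and 6.96 on the control arrays. The control arrays lay within a narrow range above all GapmeR#4 arrays, and the log2 change was -0.49 (SE 0.11, adjusted p = 0.0667). It passed in 3 of 14 alternatives, the intensity trend, array weights and the brighter 50% (adjusted p down to 0.0256), and not with any 1 array left out (adjusted p = 0.119 to 0.204). IL17RA, the chain shared by most receptors of the family, had 6.34, 6.49 and 6.32 after GapmeR#4, against 6.82, 6.57 and 6.59 in control cells, a change of -0.28 (adjusted p = 0.282). No ligand of the family was called. IL17F had a change of 0.38 without overlap (adjusted p = 0.149), with a mean signal below the lower quartiles, while IL17C and IL17D changed by 0.11 and 0.05.

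IL6R, the ligand-binding chain of the IL-6 receptor, had 4.96, 5.14 and 5.44 after GapmeR#4, against 4.84, 4.82 and 4.66 in control cells. No GapmeR#4 array fell among the control arrays, and the log2 change was 0.41 (SE 0.14, adjusted p = 0.21). IL31RA, a related receptor, had a change of 0.36 without overlap (adjusted p = 0.126). Their relatives among the ligands, IL11 and IL27, changed by -0.15 and -0.12. In the IL-10 family, IL20 had 2.87, 2.63 and 3.02 after GapmeR#4, against 2.48, 2.40 and 2.28 in control cells, with a change of 0.45 (adjusted p = 0.134). Its neighbours on chromosome 1, IL10, IL19 and IL24, had changes of 0.18, -0.09 and 0.16. IL20RB, a receptor chain for IL-20 and IL-24, had a change of -0.18 (adjusted p = 0.456). IL32 and IL16 changed by 0.03 and 0.11. Of the members matched by name alone, IL4I1, an amino acid oxidase, and IL10RB-DT, a divergent transcript, had changes of 0.08 and -0.19.

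By kind, 2 of the 63 ligands rose (3.17%) and 1 fell (1.59%), and among the 35 receptors without CCR3 2 rose (5.71%) and 1 fell (2.86%), where 1.49% of named genes rose and 2.56% fell. The groups did not overlap for 9 ligands that were higher and 4 that were lower (20.6% in all), and for 11 of these receptors that were higher and 5 that were lower (45.7%), where 32.3% of named genes did not overlap. Of the 27 interleukins 0 were called by limma, and 0 passed in the methods' t-test either. At an unadjusted p under 0.05 they had 2 higher (7.41%) and 0 lower, where 10.5% of named genes were higher and 12.6% lower. Of the 21 interleukin receptors, 2 rose (9.52%) and 1 fell (4.76%), with 6 higher (28.6%) and 4 lower (19%) at an unadjusted p under 0.05. Ligands were also dimmer as a class, with 63.5% of them below the array medians, against 48.6% of these receptors.

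Genes that carry the signals of these receptors were mostly not called. Of 16 measured genes of JAK-STAT signalling and its SOCS inhibitors, SOCS2 rose and STAT5B fell (6.25% each), where 1.49% of named genes rose and 2.56% fell. An unadjusted p under 0.05 was reached by 5 that were higher (31.2%) and 1 that was lower (6.25%), where 10.5% and 12.6% of named genes were. The groups did not overlap for 43.8% of the 16, where 32.3% of named genes did not overlap. These shares were not tested. SOCS2, which dampens growth hormone and STAT5 signalling, gave log2 signals of 5.26, 5.03 and 5.47 on the GapmeR#4 arrays, against 4.61, 4.35 and 4.05 on the control arrays. Each GapmeR#4 array was above each control array, and the change was 0.91 (SE 0.18, adjusted p = 0.0486). STAT5B, a transcription factor downstream of IL-7 and other cytokines, had 5.66, 5.85 and 5.54 after GapmeR#4, against 6.44, 6.33 and 6.25 in control cells, a change of -0.66 (SE 0.12, adjusted p = 0.0412). Both calls were lost with any 1 array left out, with an adjusted p of 0.0744 to 0.155 for SOCS2 and 0.0715 to 0.141 for STAT5B. SOCS4, SOCS5, SOCS6 and SOCS7 had changes of 0.42, 0.29, 0.58 and 0.28, each without overlap and with an unadjusted p under 0.05, and adjusted p-values of 0.0769 to 0.208. The median over the 16 genes was 0.02. SOCS4 to SOCS7 were singled out after their values were seen.

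Among 11 measured adaptors of IL-1 and Toll-like receptors 0 were called by limma. At an unadjusted p under 0.05, 1 was higher and 1 lower (9.09% each), where 10.5% of named genes were higher and 12.6% lower. MYD88, the central adaptor, had a change of 0.29 (adjusted p = 0.197). TAB1, a partner of the kinase TAK1, had one of -0.57 (adjusted p = 0.113). Of 14 listed NF-kappa-B genes 7 were measured, and the others, NFKBIA and TNFAIP3 among them, were not analysed here. Of the 7, 0 were called and 1 was higher (14.3%) at an unadjusted p under 0.05. It was CHUK, a kinase that acts on NF-kappa-B inhibitors, with a change of 0.30 (adjusted p = 0.273). Of 15 other listed genes that interferon-gamma induces, 5 were measured. None of these 5 was called, also at an unadjusted p under 0.05. IRF1 and GBP5 among them had changes of 0.27 and 0.17 (adjusted p = 0.374 and 0.429). Of 19 chemokine and cytokine genes with other names, CTF1, which encodes cardiotrophin-1 of the IL-6 family, fell: 5.24, 5.21 and 5.25 after GapmeR#4, against 5.85, 5.69 and 5.79 in control cells, a change of -0.55 (SE 0.10, adjusted p = 0.0378). With 1 array left out its adjusted p was 0.0873 to 0.117. It was the 1 call of this list (5.26%), where 2.56% of named genes fell. An unadjusted p under 0.05 was reached by 0 that were higher and 3 that were lower (15.8%), where 10.5% and 12.6% of named genes were. Beside CTF1 they were ACKR2 (change -0.38, adjusted p = 0.0905) and CX3CR1 (change -0.52, adjusted p = 0.178). Of 8 cytokine receptors with other names 0 were called and 1 was lower (12.5%) at an unadjusted p under 0.05. It was OSMR, the oncostatin M receptor, with a change of -0.39 (adjusted p = 0.123). In the methods' t-test with adjustment 0 genes of these lists passed.

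Summed signals of the endothelial markers did not overlap between groups, as for the epithelial markers above, and those of the luminal receptors did not either, at 6.2 to 6.5 after GapmeR#4 and 6.6 to 6.8 in control cells. The 5 measured leukocyte markers of 11 had summed log2 signals of 21.8 to 22.4 after GapmeR#4 and 21.6 to 22.0 in control cells. By limma 0 were called, and 1 (20%) was higher at an unadjusted p under 0.05, where 10.5% of named genes were. It was CD14 (change 0.37, adjusted p = 0.233). Of the 5 changes 3 were positive and 2 negative, those of CD68 (-0.10, mean signal 6.89) and NKG7 (-0.06). PTPRC and CD3E, which define leukocytes and T cells, were not analysed here. The 3 measured endothelial markers of 4 summed to 13.4 to 13.7 after GapmeR#4 and 14.6 to 15.1 in control cells. By limma 0 were called, and 2 (66.7%) were lower at an unadjusted p under 0.05, where 12.6% of named genes were. The 2 markers were KDR, a receptor of VEGF (change -0.62, adjusted p = 0.0847), with a mean signal of 7.22, and PECAM1 (change -0.41, adjusted p = 0.234). CDH5 was not analysed here. The 2 fibroblast markers summed to 3.7 to 4.2 after GapmeR#4 and 3.3 to 4.1 in control cells. The part of these markers in the changes of members was not tested.

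The number of calls changed with the test and with the arrays used. With the methods' t-test and Benjamini-Hochberg adjustment in place of limma, none of the 6 members passed (adjusted p = 0.0729 to 0.148), and over all transcript clusters only 8 rose and 4 fell. Leaving out control replicate 2 also left none of the 6 (adjusted p = 0.0559 to 0.168), whereas leaving out control replicate 3 kept all but IL1RAPL2. The directions of all 6 held in every setting in which they were tested.

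**Figure D5:**
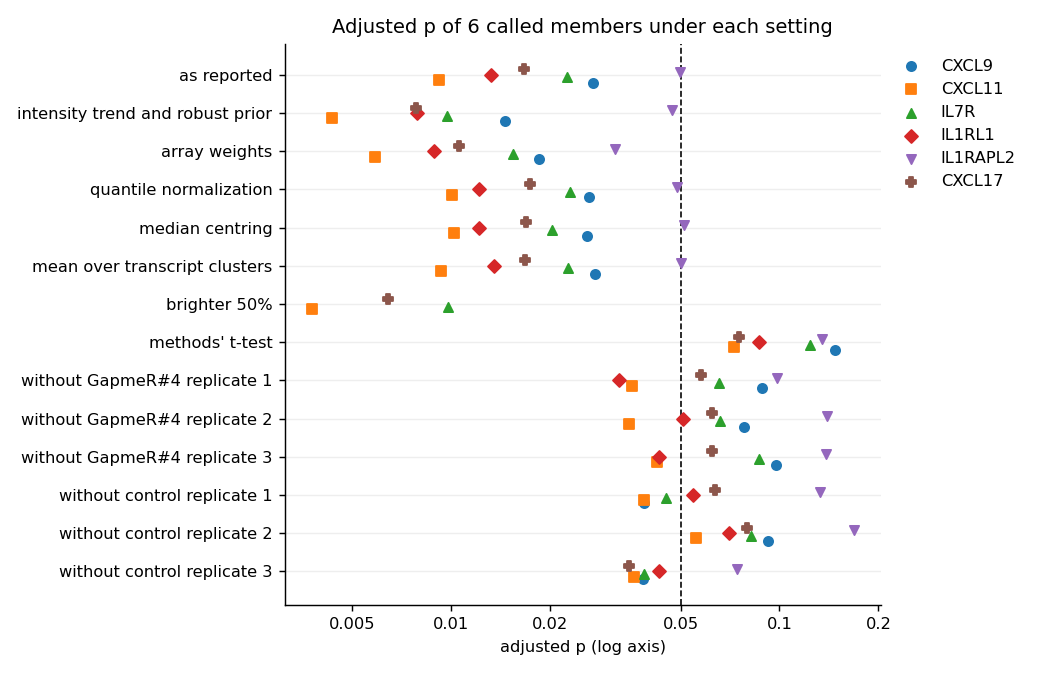
Adjusted p (log axis) of the 6 called members that the annotation names, under each processing setting but the replicate block, which is not drawn. With that block in limma, CXCL11 had an adjusted p of 0.0441 and the others had 0.0513 to 0.142. Each symbol is 1 gene and the dashed line marks 0.05. CXCL9, IL1RL1 and IL1RAPL2 have no value under the brighter 50%, CXCL11 lies left of the line in all settings but the methods' t-test and the run without control replicate 2, and IL1RAPL2 lies near or right of it in most.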

How the data were processed

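Total RNA of 3 GapmeR#4 and 3 control samples was hybridised to Human Gene 2.0 ST arrays of Affymetrix, with 1 array for each. Per the labels, Affymetrix Expression Console was used, and the authors deposited log2 signals of 53617 transcript clusters. For its version, the normalization and the genome build, the sources used here give nothing, so changes could depend on them. Signals were used as deposited, without a filter. The number of arrays limits the precision.

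Groups came from the submitters' labels. A linear model of 2 groups was fitted to every transcript cluster with limma 3.58.1 (R 4.3.3, 2-sided moderated test), with Benjamini-Hochberg adjustment over the whole table. The test was checked on simulated data. Names came from the platform annotation, which gives a symbol for 16098 transcript clusters. CXCL1, IL1A, IL1B, IL1R1, IL6 and other family members without a symbol there were not analysed here. The 105 members were assigned by hand to 19 role groups.

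Members and lists were chosen with earlier results of these data known. Named with values are members with an unadjusted p under 0.05 or a change past 1.7-fold, the 2 of highest mean signal in each role group, the partners of called ones, and of each pathway list the called genes or else the 2 of smallest p. Other genes are named as neighbours, or after their values were seen. Promoter windows of 300 bases came from RefSeq (GRCh38.p14), which matched 79 members, and gene order from RefSeq. Columns with comparisons made by the authors were not used.

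Alternatives were the brighter 50% of the table, the methods' t-test, an intensity trend with a robust prior, median centring, quantile normalization, a replicate block, array weights, averaged transcript clusters, and leaving out each array. Averaging left the signals of the members as they were, since each is read by 1 transcript cluster.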

Additional observations from a re-analysis of the deposited data

How the results depend on the processing

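With CCR3 counted, the numbers of called members kept within 1.5 times of 4 higher and 3 lower under the intensity trend, quantile normalization, median centring, array weights, the mean over transcript clusters, the brighter 50% of transcript clusters and the set without CCR3. The methods' t-test gave 0 higher and 0 lower after adjustment. At the study's cutoffs it gave 5 higher and 2 lower with CCR3 counted, the same counts as limma. CCR3 was included because the study listed it on these arrays, so counts that hold it are not independent of that list. Without CCR3, limma gave 4 higher and 2 lower after adjustment, and 5 higher and 1 lower at the study's cutoffs. Leaving out 1 array at a time gave 0 to 4 higher and 0 to 2 lower, 4 to 6 higher and 2 lower past 1.7-fold, and a median log2 change of 0.022 to 0.06. The lowest median came without control replicate 3, and the cause was not tested. Past 1.7-fold, the brighter 50%, which tests 45 members, gave 3 higher and 1 lower, and the set without CCR3 gave 1 lower. The brighter 50% also called CCR2, IL17RD and CXCL16, and the intensity trend and array weights called IL17RD. The change of NRAD1 kept its sign and missed the threshold in every setting (adjusted p = 0.0765 to 0.235).

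With the replicate number as a block, 1 member was higher (CXCL11) and 0 were lower, and over all transcript clusters 55 rose and 35 fell, against 614 and 760 without it. Deviations of same-numbered arrays correlated at -0.0645, -0.00476 and -0.0179, so no shared deviation by replicate number was seen. With so few arrays, these values cannot show whether same-numbered cultures were paired, and the labels do not state it. Why calls were lost with the block was not tested.

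Of the changes in named genes, 22 values reversed in sign, over 11 genes, none of which was called. With CCR3 counted, 24 members had an unadjusted p under 0.05 in limma, and 0 of them were among these genes. With array weights CXCL10 became -0.02 and IL1RN 0.01. With 1 array left out the change ranged from -0.22 to 0.08 for CCL26, -0.07 to 0.14 for CCL3L1, -0.12 to 0.12 for CXCR4, -0.06 to 0.15 for CXCL10, -0.05 to 0.08 for CXCL2, -0.25 to 0.05 for CXCL5, -0.07 to 0.02 for IL1RN, -0.04 to 0.15 for IL1RAP, -0.08 to 0.14 for IL17D, -0.29 to 0.02 for IL27 and -0.01 to 0.06 for IL32.

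The mean signals of CXCL10, IL7 and IL33 lay below the lower quartiles, and their changes had SEs of 0.14, 0.14 and 0.18. These lay between the SEs of the brighter CXCL17 (0.12) and IL7R (0.20). The effect of such low signals on precision and on the detection of small changes was not tested.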
